A study of Mus musculus with 13 samples.

Results

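Interferon-stimulated genes are the transcripts that cells raise when interferon binds its receptors, and 9 of them were followed here in laser-captured motoneurons of SOD1-G93A mice: Irf7, Irf9, Isg15, Usp18, Ifit1, Ifit3, Rsad2, Bst2 and Ifitm3. They were chosen by symbol, with earlier results of these data known. Each symbol was matched to 1 of the 48709 gene rows through the GENCODE mouse names. All 9 passed the filter on low counts, which left 17403 genes. The 13 libraries came from mice aged 65 days that all carried the SOD1-G93A transgene, a mutant human SOD1 used to model amyotrophic lateral sclerosis, so no healthy mice were available for comparison. In the AAV-miR SOD1 group (n = 4), an adeno-associated virus (AAV) given into the cerebral ventricles in the first days of life made astrocytes express an artificial microRNA against human SOD1. The control vector, AAV-miR ctrl, was given by the same route to 5 mice, and 4 non-injected littermates received no virus. Each library was made from a pool of motoneurons of 1 mouse, cut from lumbar cord that had been frozen together with its vertebrae, per the labels' protocols, so the p-values below measure the spread between mice.

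Type I interferons bind the receptor pair Ifnar1 and Ifnar2 and activate the kinases Jak1 and Tyk2, which phosphorylate transcription factors of the STAT family. These join Irf9 in a complex that binds the interferon-stimulated response element in target promoters. The pathway is triggered by nucleic acid sensors, also those that detect viral genomes. In the central nervous system both neurons and glia can respond, and microglia are a strong source of such transcripts.

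The core of the response element, GAAANNGAAA, was searched on both strands of the RefSeq promoters (GRCm38.p6, 250 bases before to 50 bases after each start). Of the 9 genes 8 had a promoter entry, and 6 of these 8 held a match, against 3.99% of the 27025 genes with an entry (3.44% of 32851 promoters). The windows that hold the matches are shown because the complex with Irf9 binds this element in target promoters. Each is printed 5′ to 3′ on the strand that reads GAAANNGAAA, with the matched bases in capitals. The Isg15 window, chr4:156200865-156200906 on the minus strand, holds 3 overlapping matches. Distances before a start are the bases between the nearer end of a match and the start, and for Isg15 there are 56. Ifit1 has matches at distances of 94 and 75 bases before its start, in the windows chr19:34640775-34640804 and chr19:34640794-34640823 (minus strand), which overlap. Ifit3 has matches at distances of 146 and 112 bases before its start, at chr19:34583363-34583392 and chr19:34583397-34583426 (minus strand). The Rsad2 window is chr12:26456553-26456582 on the plus strand, with the match at a distance of 110 bases before the start. The Bst2 window, chr8:71537577-71537612 on the minus strand, holds 2 overlapping matches at a distance of 114 bases before the start. Those of Ifitm3 begin 2 and 19 bases after the start, at chr7:141010723-141010752 and chr7:141010706-141010735 (minus strand).
Isg15: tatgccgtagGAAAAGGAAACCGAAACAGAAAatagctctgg
Ifit1 first: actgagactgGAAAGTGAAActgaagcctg
Ifit1 second: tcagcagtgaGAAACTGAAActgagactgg
Ifit3 first: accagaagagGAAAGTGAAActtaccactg
Ifit3 second: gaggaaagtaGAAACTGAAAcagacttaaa
Rsad2: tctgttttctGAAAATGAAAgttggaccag
Bst2: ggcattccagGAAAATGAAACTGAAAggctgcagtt
Ifitm3 first: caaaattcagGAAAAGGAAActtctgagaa
Ifitm3 second: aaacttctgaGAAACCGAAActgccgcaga
The windows of the transcription factors Irf7 and Irf9 held no match, and Usp18 had no entry. Among 40 other interferon-stimulated genes with a promoter entry, 18 held a match.

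Libraries held 13.9 to 37.4 megacounts assigned to genes, so that 3 counts corresponded to 0.0802 to 0.216 CPM (counts per megacount, scaled by TMM for the levels below). By group they held 16.4 to 22.8 megacounts with AAV-miR SOD1, 13.9 to 37.3 with AAV-miR ctrl and 17.5 to 37.4 without injection. Replicates 5 and 6, found only in AAV-miR ctrl and non-injected, were the deepest, at 29.7 to 37.4 megacounts. In comparisons with AAV-miR SOD1, depth and group therefore cannot be told apart fully. The column headers of 2 tables went against their labels. The header read SOD for the library labelled AAV-miR ctrl replicate 3, and it read miRCtrl for the library labelled non-injected replicate 3. The labels were followed, and main counts are also given without both libraries. Mouse Sod1, the nearest measured gene to the human target, had a mean of 237 ± 48.8 CPM (SD) with AAV-miR SOD1, 288 ± 50.3 CPM (SD) with AAV-miR ctrl and 334 ± 112 CPM (SD) without injection, and it does not check the knockdown, which acts on human SOD1 in astrocytes. All 8 motoneuron markers (Chat, Slc5a7, Slc18a3, Isl1, Mnx1, Prph, Nefh and Ret) were detected. Counts of all libraries differed by more than sampling noise, with a chi-square of at least 38.9 per degree of freedom over 78 pairs.

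Mean levels of all 9 genes were ordered in the same way, with AAV-miR SOD1 first, AAV-miR ctrl second and non-injected last. Neighbouring groups in this order overlapped for each gene. Per kilobase of exon, averaged over the 13 libraries, Ifitm3 was the most abundant, at 351 ± 144 CPM per kilobase (SD, n = 13). Isg15 (53.3 ± 42.3 CPM per kilobase), Bst2 (48.6 ± 18.8 CPM per kilobase) and Rsad2 (42.5 ± 37.4 CPM per kilobase) followed, and the differences between these were not tested. The other 5 lay between 3.07 ± 1.92 CPM per kilobase (Ifit1) and 7.26 ± 4.64 CPM per kilobase (Irf7). Levels per length of all 9 genes were above the median of the genes tested, from the 51.0th percentile for Ifit1 to the 99.1th for Ifitm3. Between the highest and the lowest library the level differed 3.61-fold for Ifitm3 and 18.8-fold for Rsad2, the extremes among the 9.

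**Figure D1:**
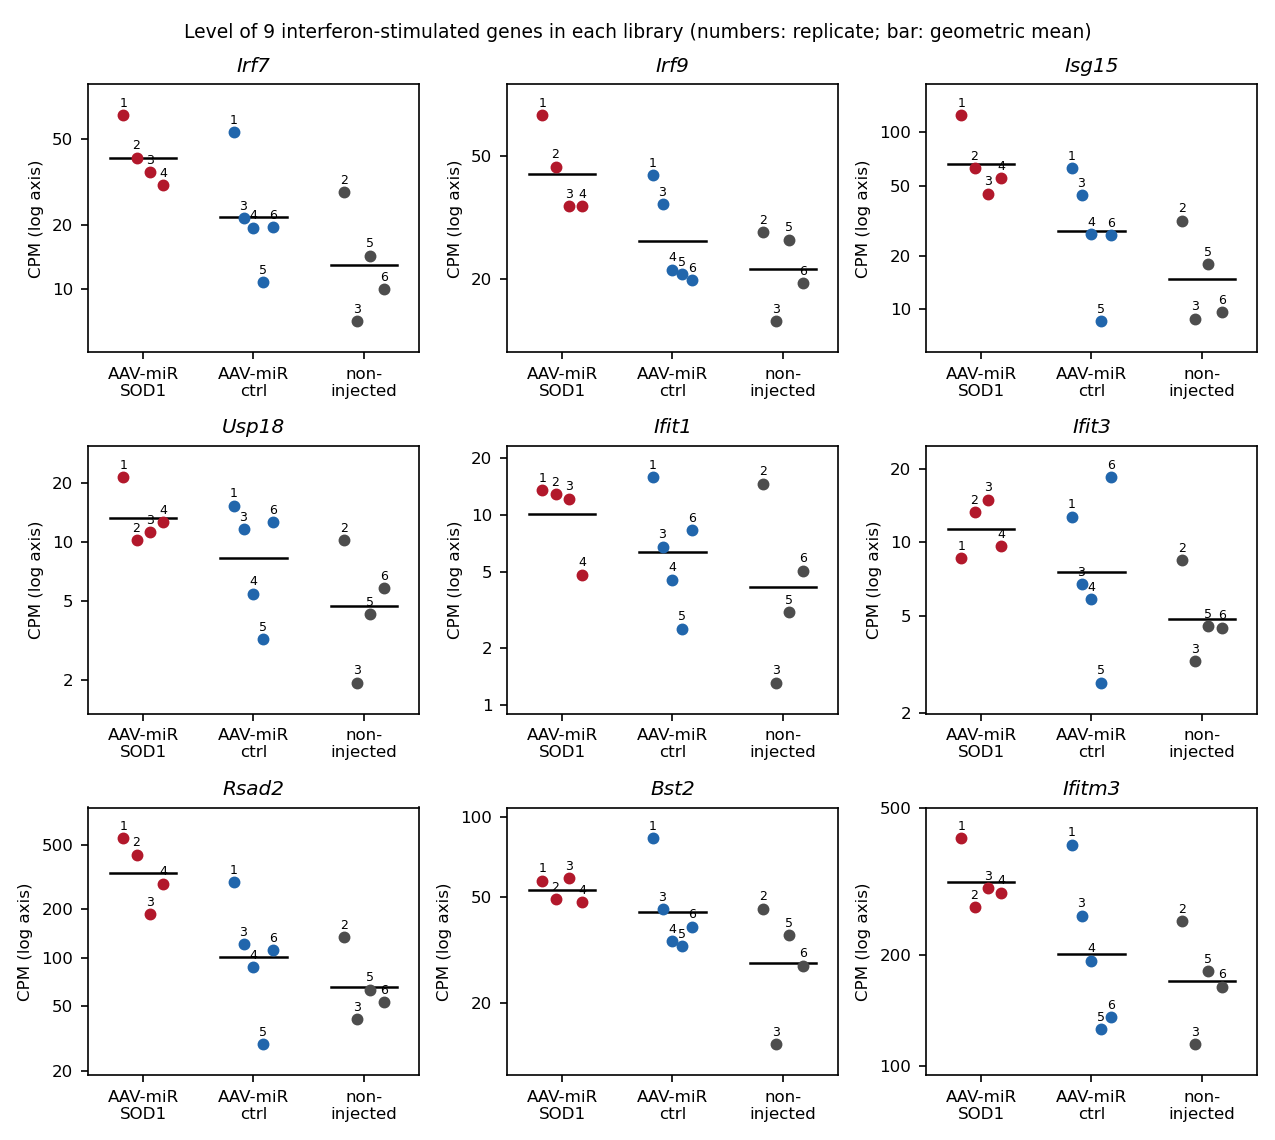
Level of each of the 9 genes in every library, in CPM on a log axis, by group; points carry the replicate number and bars are geometric means. For 8 genes the AAV-miR SOD1 points all lie above the non-injected points and AAV-miR ctrl spans both.

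Irf7, the transcription factor that amplifies type I interferon production, lies on chr7:141262706-141266481 (GRCm38, minus strand). Its level was 64.6, 41.0, 35.2 and 30.6 CPM in AAV-miR SOD1 replicates 1 to 4. In AAV-miR ctrl replicates 1, 3, 4, 5 and 6 it was 54.1, 21.4, 19.4, 10.8 and 19.4 CPM, and in non-injected replicates 2, 3, 5 and 6 it was 28.3, 7.11, 14.4 and 10.007 CPM. The AAV-miR SOD1 libraries all lay above the non-injected ones, and AAV-miR ctrl replicate 1 lay among the former. Against AAV-miR ctrl the log2 fold change was 0.78 ± 0.46 (SE), with an edgeR adjusted p of 0.445. Against non-injected it was 1.52 ± 0.49 (SE), with an edgeR adjusted p of 0.146. Of its exonic bases, 45 are shared with Phrf1 on the other strand, and the strand setting of the counting is not given in the sources used here.

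Irf9, a DNA-binding subunit of the complex that type I interferon activates, lies on chr14:55603571-55610030 (plus strand). It was at 67.9, 46.3, 34.4 and 34.4 CPM in AAV-miR SOD1 replicates 1 to 4. The AAV-miR ctrl libraries, in the order used for Irf7, had 43.5, 34.95, 21.5, 20.7 and 19.9 CPM, and the non-injected libraries had 28.4, 14.6, 26.9 and 19.4 CPM. AAV-miR ctrl replicates 1 and 3 reached into the AAV-miR SOD1 range, and the other AAV-miR ctrl libraries lay within the non-injected range. The log2 fold change was 0.70 ± 0.30 (SE, unadjusted p = 0.0358, edgeR adjusted p = 0.317) against AAV-miR ctrl and 1.04 ± 0.32 (SE, edgeR adjusted p = 0.141) against non-injected. Irf9 shares 123 exonic bases with Rnf31.

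Isg15, a ubiquitin-like protein that is conjugated to other proteins, lies on chr4:156199424-156200818 (minus strand). Its levels were 124.8, 62.8, 45.02 and 55.1 CPM in AAV-miR SOD1, 62.6, 44.0, 26.5, 8.54 and 26.2 CPM in AAV-miR ctrl, and 31.6, 8.82, 17.965 and 9.56 CPM in non-injected libraries. AAV-miR SOD1 replicate 1 stood highest of all 13 libraries, and AAV-miR ctrl replicate 5 lowest. The log2 fold change was 1.10 ± 0.51 (SE, unadjusted p = 0.0478, edgeR adjusted p = 0.337) against AAV-miR ctrl. Against non-injected it was 2.08 ± 0.56 (SE), a 4.23-fold difference with an edgeR adjusted p of 0.140. Usp18, the protease that removes Isg15 from its targets and restrains the interferon receptor, lies on chr6:121245906-121270917 (plus strand). It was at 21.4, 10.2, 11.2 and 12.6 CPM in AAV-miR SOD1, 15.3, 11.7, 5.47, 3.20 and 12.6 CPM in AAV-miR ctrl, and 10.2, 1.93, 4.29 and 5.81 CPM in non-injected libraries. The lowest AAV-miR SOD1 library, at 10.21 CPM, and the highest non-injected one, at 10.185 CPM, were almost level. The log2 fold change of Usp18 was 0.52 ± 0.48 (SE, edgeR adjusted p = 0.648) against AAV-miR ctrl and 1.32 ± 0.52 (SE, edgeR adjusted p = 0.181) against non-injected. Usp18 shares 124 exonic bases with the antisense Gm44148.

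Ifit1 and Ifit3 code for tetratricopeptide proteins that bind viral RNA or assist in doing so. Ifit1 lies on chr19:34640871-34650009 and Ifit3 on chr19:34583531-34588731, both on the plus strand. Ifit1 was at 13.6, 12.9, 12.2 and 4.86 CPM in AAV-miR SOD1, 15.9, 6.84, 4.57, 2.52 and 8.32 CPM in AAV-miR ctrl, and 14.7, 1.31, 3.07 and 5.09 CPM in non-injected libraries. This was the gene with overlap between every pair of groups, since AAV-miR SOD1 replicate 4 was low and non-injected replicate 2 high. Its log2 fold change was 0.51 ± 0.62 (SE, edgeR adjusted p = 0.737) against AAV-miR ctrl and 0.86 ± 0.66 (SE, edgeR adjusted p = 0.487) against non-injected. Ifit3 was at 8.63, 13.3, 15.007 and 9.66 CPM in AAV-miR SOD1, 12.8, 6.74, 5.84, 2.65 and 18.6 CPM in AAV-miR ctrl, and 8.43, 3.24, 4.52 and 4.47 CPM in non-injected libraries. Unlike the other 8 genes it was highest in AAV-miR ctrl replicate 6. The log2 fold change of Ifit3 was 0.32 ± 0.46 (SE, edgeR adjusted p = 0.788) against AAV-miR ctrl and 1.17 ± 0.50 (SE, edgeR adjusted p = 0.201) against non-injected. The Ifit3 values are uncertain, because 51.2% of its 50-base transcript windows also occur in the neighbouring Ifit3b. The same share was 7.13% for Ifit1, with Ifit1bl1 and Ifit1bl2.

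Rsad2 codes for viperin, an enzyme that makes a chain-terminating nucleotide, and lies on chr12:26442746-26456452 (minus strand). Its levels in the AAV-miR SOD1 libraries were 548, 435, 186 and 288 CPM. The AAV-miR ctrl libraries had 294, 122, 87.5, 29.2 and 112 CPM, and the non-injected libraries 134, 41.8, 63.4 and 53.0 CPM. AAV-miR ctrl replicate 1 was the one library outside the AAV-miR SOD1 group within its range. Rsad2 had the highest log2 fold change of the 9 against AAV-miR ctrl, 1.5004 ± 0.53 (SE, unadjusted p = 0.0135), with an edgeR adjusted p of 0.277. Against non-injected the value was 2.32 ± 0.59 (SE), a 4.98-fold difference with an edgeR adjusted p of 0.140. These stood at percentiles 98.3 and 99.3 of the log2 fold changes of all genes tested.

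Bst2 codes for tetherin, which holds budding virus at the cell surface, and lies on chr8:71534255-71537456 (minus strand). It was at 57.6, 49.1, 59.0 and 47.8 CPM in AAV-miR SOD1, 83.0, 45.1, 34.2, 32.7 and 38.8 CPM in AAV-miR ctrl, and 45.2, 14.1, 36.0 and 27.7 CPM in non-injected libraries. AAV-miR ctrl replicate 1 stood above all AAV-miR SOD1 libraries, and the other 4 of its group below them. The log2 fold change was 0.19 ± 0.32 (SE, edgeR adjusted p = 0.828) against AAV-miR ctrl and 0.80 ± 0.35 (SE, edgeR adjusted p = 0.210) against non-injected. Ifitm3, a membrane protein that hinders virus fusion, lies on chr7:141009586-141010770 (minus strand). It was at 414, 269, 303 and 295 CPM in AAV-miR SOD1, 398, 256, 193, 126 and 135 CPM in AAV-miR ctrl, and 247, 115, 181 and 164 CPM in non-injected libraries. Here too AAV-miR ctrl replicate 1 was the one control library within the AAV-miR SOD1 range. The log2 fold change of Ifitm3 was 0.53 ± 0.33 (SE, edgeR adjusted p = 0.464) against AAV-miR ctrl and 0.86 ± 0.35 (SE, edgeR adjusted p = 0.187) against non-injected. Of its 50-base windows, 10% occur in other genes, Ifitm1 and Ifitm2 among them.

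Setting the microRNA against its control vector asks what targeting SOD1 adds to injection and virus. All 9 genes had a positive log2 fold change, with a median of 0.53 against -0.04 over all genes tested. In edgeR's quasi-likelihood test 0 of the 9 had an adjusted p under 0.05, as for all genes (0%). At an unadjusted p under 0.05 there were 3, Irf9, Isg15 and Rsad2, or 33.3%, where 5.99% of all genes were called higher. Since the 9 genes were chosen with earlier results of these data known, such shares are descriptions, here and in the comparisons below. The groups overlapped for all 9, where 1.27% of all genes were higher without overlap. DESeq2 also called 0 of the 9 after adjustment, beside 1.03% of all genes, and had 3 at an unadjusted p under 0.05, beside 7.48% of all genes called higher. Limma-voom called 0 after adjustment (0% of all genes) and had 5 at an unadjusted p under 0.05, beside 11.5% of all genes called higher. The unadjusted count was 1 without AAV-miR SOD1 replicate 1 or 2 or without AAV-miR ctrl replicate 4, 5 or 6, and 5 without AAV-miR ctrl replicate 1. The share of all genes called higher was 2.28% to 4.12% in the former fits and 11.6% in the latter. Without both libraries with conflicting headers the unadjusted count was 3, beside 5.81% of all genes. When the headers were followed it was 4, beside 7.64%. Among the libraries numbered 1 to 4, which leave out the deepest ones, it was 0, beside 2.45% of all genes, and the log2 fold changes ran from -0.02 for Bst2 to 1.12 for Rsad2. In bulk samples like these, more cells of a type and more RNA per cell cannot be told apart.

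Injected against non-injected sets the mean of both injected groups against the non-injected group. A difference in 1 injected group alone can move this mean, so it does not show that both groups differ. Each group is set against non-injected on its own further below. All 9 log2 fold changes were positive again, from 0.59 ± 0.30 (SE) for Ifitm3 and 0.60 ± 0.57 (SE) for Ifit1 to 1.53 ± 0.50 (SE) for Isg15 and 1.57 ± 0.52 (SE) for Rsad2, with a median of 1.01 against -0.06 over all genes. Irf7 had 1.13 ± 0.44 (SE), Usp18 1.055 ± 0.46 (SE), Ifit3 1.01 ± 0.44 (SE), Bst2 0.70 ± 0.30 (SE) and Irf9 0.68 ± 0.28 (SE). After adjustment 0 of 9 were called by edgeR (0% of all genes), with adjusted p from 0.466 to 0.692, and 0 by DESeq2 (0.144% of all genes) and limma-voom (0%). At an unadjusted p under 0.05 there were 7 of 9, all but Ifit1 and Ifitm3, or 77.8%, where 4.78% of all genes were called higher. The groups overlapped for all 9, where 0.144% of all genes were higher without overlap. The count of 7 fell to 2, Isg15 and Rsad2, without both libraries whose headers went against the labels, with log2 fold changes from 0.32 (Ifit1) to 1.43 (Rsad2), and the share of all genes called higher was then 2.86%. It was also 2 without non-injected replicate 3 alone (2.39% of all genes) or replicate 6 alone (2.88%), and 4 without AAV-miR SOD1 replicate 1 (3.18%). It was 9 without non-injected replicate 2, beside 7.8% of all genes. In the libraries numbered 1 to 4 it was 2, beside 5.51% of all genes, and when the headers were followed it was 0, beside 2.22%.

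Both injected groups were then set against the same non-injected libraries one by one, so these values share controls with each other and with the pooled comparison. For AAV-miR SOD1 against non-injected, all 9 log2 fold changes were positive, with a median of 1.17 against -0.09 over all genes. After adjustment edgeR called 0 (0% of all genes). DESeq2 called 4 of 9, with adjusted p of 0.0385 for Irf7, 0.0391 for Irf9, 0.0138 for Isg15 and 0.00795 for Rsad2, beside 5.89% of all genes. Limma-voom called 0 (0% of all genes). At an unadjusted p under 0.05 edgeR had 8, all but Ifit1, or 88.9%, beside 9.36% of all genes called higher. The same 8 genes were higher without overlap, beside 5.9% of all genes. Without both libraries with conflicting headers 8 did not overlap, beside 6.74% of all genes, and 4 had an unadjusted p under 0.05, beside 7.47% called higher. When the headers were followed, 6 did not overlap, beside 4.86% of all genes, and 4 had an unadjusted p under 0.05, beside 7.1% called higher. The unadjusted count was 5 without AAV-miR SOD1 replicate 1 (5.5% of all genes called higher) or non-injected replicate 6 (6.78%), 4 without non-injected replicate 3 (6.26%), and 3 in the libraries numbered 1 to 4 (8.03%). It was 9 without non-injected replicate 2 (12.3%).

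For AAV-miR ctrl against non-injected the log2 fold changes were 0.74 ± 0.47 (SE) for Irf7, 0.33 ± 0.31 (SE) for Irf9, 0.98 ± 0.52 (SE) for Isg15 and 0.79 ± 0.49 (SE) for Usp18. They were 0.34 ± 0.62 (SE) for Ifit1, 0.85 ± 0.47 (SE) for Ifit3, 0.82 ± 0.54 (SE) for Rsad2, 0.61 ± 0.33 (SE) for Bst2 and 0.33 ± 0.33 (SE) for Ifitm3. The median was 0.74 against -0.01 over all genes. By edgeR 0 of 9 were called after adjustment (0% of all genes) and 0 at an unadjusted p under 0.05, beside 1.38% of all genes called higher, with unadjusted p from 0.0805 to 0.592. DESeq2 (0.0115% of all genes) and limma-voom (0% of all genes) also called 0 of the 9 after adjustment. The groups overlapped for all 9, beside 0.299% of all genes that were higher without overlap. The unadjusted count was 4 without AAV-miR ctrl replicate 5, beside 1.74% of all genes called higher, and 7 without non-injected replicate 2, beside 2.56%. It was 0 without both libraries with conflicting headers, beside 1.33%, and 0 with the headers followed, beside 1.45%. When the headers were followed, Irf9, Ifit1, Usp18 and Ifitm3 had negative log2 fold changes, from -0.19 to -0.05.

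**Figure D2:**
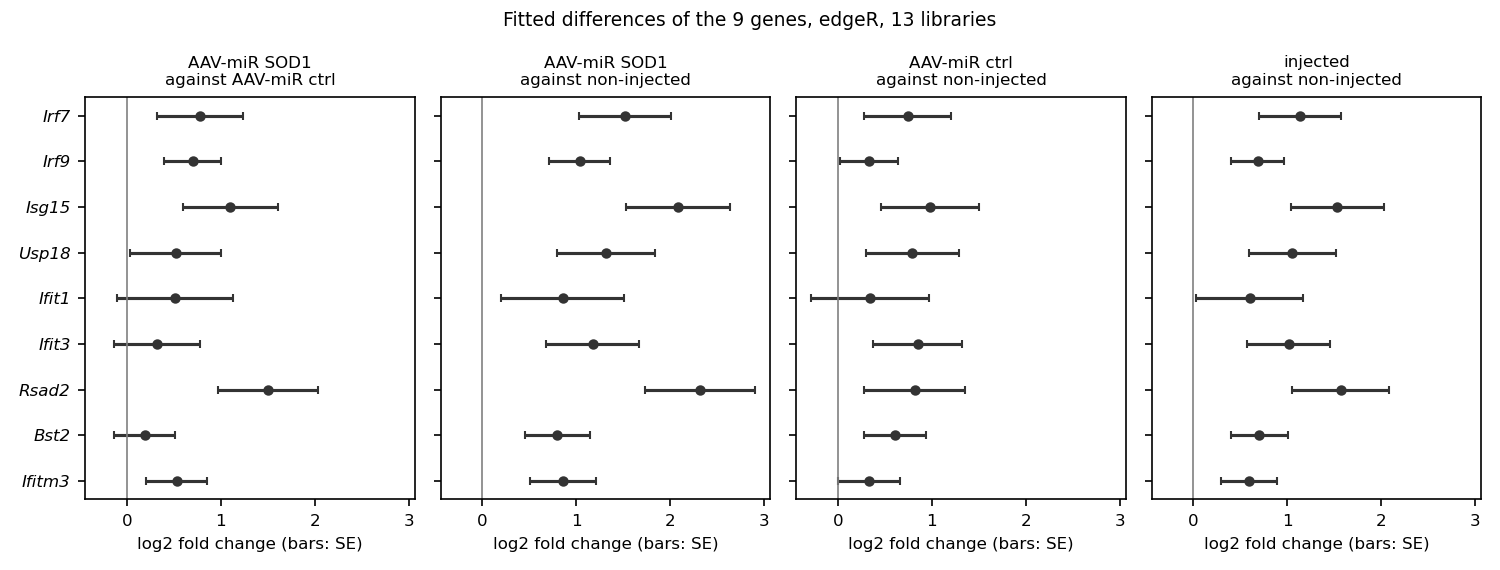
Log2 fold changes of the 9 genes from edgeR in the 4 comparisons; points are estimates and bars are 1 standard error on each side. All 36 estimates lie above 0, and those of Isg15 and Rsad2 in AAV-miR SOD1 against non-injected are the highest, at 2.08 and 2.32.

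The 9 genes varied together from library to library, also within groups. Over the 13 libraries the Pearson correlation of log2 CPM between 2 of the genes ranged from 0.53 (Irf9 and Ifit3) to 0.97 (Isg15 and Rsad2), with a median of 0.86 over 36 pairs. After each group's mean was subtracted, it ranged from 0.24 to 0.95, with a median of 0.79. These correlations are descriptions, since the genes share libraries, depth and cell makeup. Averaged over the 9 genes, the deviation of log2 CPM from the gene's mean was 1.22, 0.79, 0.60 and 0.44 in AAV-miR SOD1 replicates 1 to 4. In AAV-miR ctrl replicates 1, 3, 4, 5 and 6 it was 0.99, 0.17, -0.36, -1.19 and 0.04, and in non-injected replicates 2, 3, 5 and 6 it was 0.27, -1.55, -0.63 and -0.80. AAV-miR ctrl replicate 1 was among the 4 highest libraries for all 9 genes, and 2 libraries, non-injected replicate 3 and AAV-miR ctrl replicate 5, were among the 4 lowest for all 9. Non-injected replicate 2 was the highest and replicate 3 the lowest of their group for each of the 9. The median coefficient of variation of the 9 genes was 35.3% within AAV-miR SOD1, 61.1% within AAV-miR ctrl and 57.2% within non-injected, and the differences between these were not tested.

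**Figure D3:**
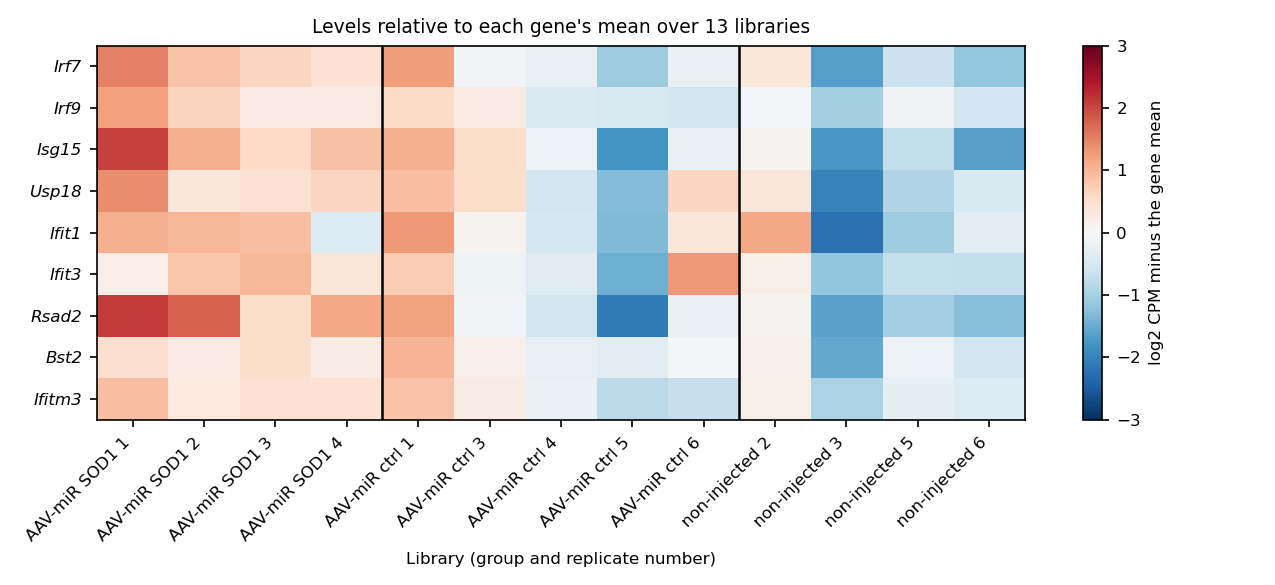
Log2 CPM of the 9 genes (rows) in the 13 libraries (columns), each minus the gene's mean over the libraries, with lines between the groups. AAV-miR ctrl replicate 1 has the colours of the AAV-miR SOD1 libraries, while non-injected replicate 3 and AAV-miR ctrl replicate 5 are low in all 9 rows.

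The 10 genes whose log2 CPM followed the mean of the 9 most closely over the 13 libraries were Vamp8, Klra2, Sp140, Trim30a, Herc6, Clec4a3, Ube2l6, 4833420G17Rik, Hba-a2 and Apbb1ip, with Pearson correlations from 0.96 to 0.95. After group means were subtracted, their correlations were 0.91 to 0.95. Trim30a, Herc6 and Ube2l6, the E2 enzyme for Isg15, are themselves interferon-stimulated genes of the list described next, and Hba-a2 codes for an alpha globin of red blood cells. Vamp8, first of the 10, was at 75.3 to 254 CPM and had a log2 fold change of 0.67 ± 0.27 (SE, edgeR adjusted p = 0.297) against AAV-miR ctrl.

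A list of 50 other interferon-stimulated genes, of which 49 passed the filter, was examined in the same way. Against AAV-miR ctrl the median log2 fold change was 0.44, with 0 genes called after adjustment by edgeR, as for all genes (0%). At an unadjusted p under 0.05, 7 were higher (14.3%) and 0 lower, beside 5.99% of all genes called higher. The 3 with the smallest p were Isg20, an exonuclease, at 1.42 ± 0.44 (SE, edgeR adjusted p = 0.256), Uba7, the E1 enzyme for Isg15, at 1.07 ± 0.41 (SE, edgeR adjusted p = 0.286), and Ube2l6 at 1.204 ± 0.47 (SE, edgeR adjusted p = 0.291). Injected against non-injected had a median of 0.78, with 0 called after adjustment (0% of all genes). At an unadjusted p under 0.05, 19 were higher (38.8%) and 0 lower, beside 4.78% of all genes called higher. Leading in this comparison were Cmpk2, a mitochondrial nucleotide kinase next to Rsad2, at 0.95 ± 0.27 (SE), Trim30a at 1.23 ± 0.38 (SE) and Oasl1 at 2.08 ± 0.68 (SE). Each had an edgeR adjusted p of 0.466. AAV-miR SOD1 against non-injected had 22 higher (44.9%, beside 9.36% of all genes) and 1 lower (median 1.00). AAV-miR ctrl against non-injected had 5 higher (10.2%, beside 1.38% of all genes) and 0 lower (median 0.48). DESeq2 called 12 of the 49 in AAV-miR SOD1 against non-injected, beside 5.89% of all genes. In the rest of this paragraph percentages in brackets are the share of all genes called higher. Without both libraries with conflicting headers, the 19 became 7 (2.86%), the 22 became 15 (7.47%) and the 7 stayed 7 (5.81%). When the headers were followed, they became 4 (2.22%), 14 (7.1%) and 10 (7.64%) in the same order. With the replicate number as a block they became 8 (2.3%), 13 (4.96%) and 2 (5.41%). In the libraries numbered 1 to 4 they became 13 (5.51%), 16 (8.03%) and 1 (2.45%). The count of 19 became 8 without non-injected replicate 3 (2.39%). The 7 against AAV-miR ctrl became 1 without AAV-miR SOD1 replicate 1 (2.28%) and 18 without AAV-miR ctrl replicate 1 (11.6%).

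The other levels of the pathway were followed from ligand to transducer. Of 21 interferon genes, 17, all the Ifna genes listed among them, had 0 counts in every library. For reads assigned to a gene this allows up to 0.0802 to 0.216 CPM in each library. Reads aligned to several places, 42.3 to 56.8% of each table, were left out, so transcripts that share sequence could have been missed. The other 4 interferon genes, Ifng, Ifnk, Ifnz and Ifnb1, had 22 counts in total, and none passed the filter. Of the 6 receptor genes, 0 had an unadjusted p under 0.05 in the 4 comparisons by edgeR on all libraries. Without non-injected replicate 5, and likewise in the libraries numbered 1 to 4, 2 were higher in AAV-miR SOD1 against non-injected and 1 in injected against non-injected. Of all genes, 10.2% and 6.09% were called higher without that library, and 8.03% and 5.51% in the libraries numbered 1 to 4. With all libraries the median log2 fold change of the receptor genes was 0.23 against AAV-miR ctrl and 0.24 for injected against non-injected. Ifnar1, a chain of the type I receptor, had 0.43 ± 0.27 (SE, edgeR adjusted p = 0.544) for injected against non-injected, and Ifnar2, the other chain, 0.46 ± 0.31 (SE, edgeR adjusted p = 0.498) against AAV-miR ctrl. Of 11 signal transduction genes, 1 was higher at an unadjusted p under 0.05 against AAV-miR ctrl, or 9.09%. This lies near the 5.99% of all genes called higher. The gene was Ptpn6, which codes for a phosphatase, at 0.84 ± 0.34 (SE, edgeR adjusted p = 0.302). The median of these 11 genes was 0.41 against AAV-miR ctrl and 0.14 for injected against non-injected. The count against AAV-miR ctrl became 0 without AAV-miR SOD1 replicate 1 (2.28% of all genes called higher) and 3 without AAV-miR ctrl replicate 1 (11.6%).

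Of 15 nucleic acid sensing genes, 0 had an unadjusted p under 0.05 against AAV-miR ctrl (median log2 fold change 0.31), and Tmem173, which codes for STING, had 0.57 ± 0.31 (SE, edgeR adjusted p = 0.412). For injected against non-injected 0 of 15 were called after adjustment (0% of all genes). At an unadjusted p under 0.05, 4 were higher (26.7%, beside 4.78% of all genes) and 0 lower (median 0.44). They included Tlr9, the endosomal receptor for unmethylated CpG DNA, at 1.995 ± 0.81 (SE), Trim25 at 0.90 ± 0.37 (SE) and Ddx58, which codes for the RNA sensor RIG-I, at 0.65 ± 0.28 (SE), each with an edgeR adjusted p of 0.466. Tlr9 rests on 97 counts over all libraries, and its non-injected mean of 0.118 CPM lies within the range of 3 counts, so the size of its fold change is uncertain. Without both libraries with conflicting headers, and also without AAV-miR SOD1 replicate 1, the 4 became 1. The share of all genes called higher was then 2.86% and 3.18%. Without AAV-miR ctrl replicate 1, 4 of 15 were higher against AAV-miR ctrl in place of 0, beside 11.6% of all genes.

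**Figure D4:**
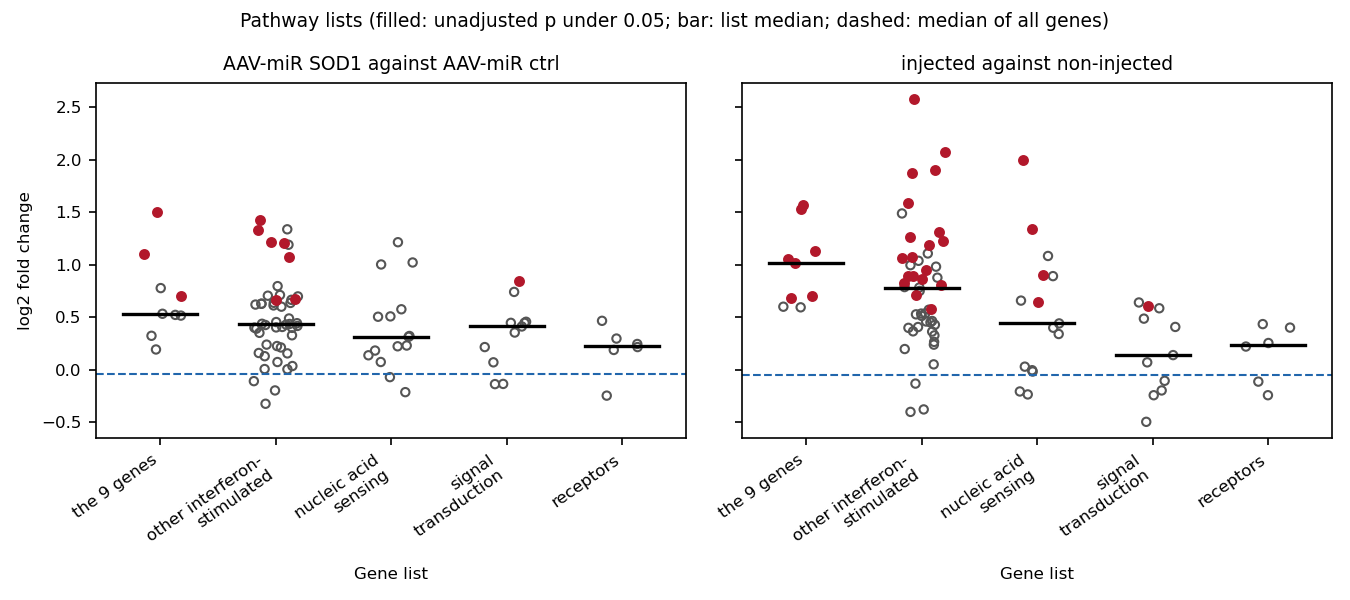
Log2 fold changes (edgeR) of the genes of 5 lists that passed the filter, against AAV-miR ctrl (left) and injected against non-injected (right); filled points have an unadjusted p under 0.05, bars are list medians and the dashed line is the median of all genes. In injected against non-injected, 7 of the 9 genes, 19 of 49 other interferon-stimulated genes, 4 of 15 sensing genes and 0 of 6 receptors are filled. Of all genes, 4.78% were called higher there.

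Sums of markers of other cell types differed between libraries too, and their part in the result was not tested. At an unadjusted p under 0.05, 5.99% of all genes were higher against AAV-miR ctrl and 4.78% for injected against non-injected. In AAV-miR SOD1 against non-injected it was 9.36%. The numbers lower were 1486, 1025 and 2006 of 17403 genes in the same order. The summed level of 12 microglia markers was 934 to 1250 CPM in AAV-miR SOD1, 560 to 1498 CPM in AAV-miR ctrl and 339 to 934 CPM in non-injected libraries, and at an unadjusted p under 0.05 edgeR had 2 of 12 higher against AAV-miR ctrl and 3 of 12 for injected against non-injected. The 7 neutrophil granule markers summed to 28439 to 77300 CPM, 9961 to 66059 CPM and 14227 to 23109 CPM in the same order, with 1 and 0 higher. The 7 erythroid markers summed to 21035 to 47502 CPM, 3571 to 28231 CPM and 5582 to 20310 CPM, with 7 and 6 higher. AAV-miR ctrl replicate 1, the library of its group in which 8 of the 9 genes were highest, had the highest sum of its group for all of these lists, at 1498, 66059 and 28231 CPM. The 8 motoneuron markers had sums of 1439 to 2613 CPM, 2103 to 4734 CPM and 2344 to 5531 CPM, and 6 lower against AAV-miR ctrl and 8 for injected against non-injected at an unadjusted p under 0.05. In AAV-miR SOD1 against non-injected, where 8 of the 9 genes had an unadjusted p under 0.05, so did 6 of 12 microglia, 4 of 7 neutrophil granule and 7 of 7 erythroid markers, all higher, and 8 of 8 motoneuron markers, all lower. After adjustment edgeR called 0 of these genes in any of these comparisons, as for all genes (0%). DESeq2, which called 4 of the 9 genes in AAV-miR SOD1 against non-injected, called 2 of 12 microglia, 1 of 7 neutrophil granule, 7 of 7 erythroid and 7 of 8 motoneuron markers there. Of all genes it called 5.89% there. Without both libraries with conflicting headers, the counts for injected against non-injected became 1 for microglia, 0 for erythroid and 0 for motoneuron markers, and those for AAV-miR SOD1 against non-injected became 3, 7 and 7. Of all genes, 2.86% and 7.47% were then called higher in these comparisons. The following counts at an unadjusted p under 0.05 are from fits with 1 library left out. Against AAV-miR ctrl, without its replicate 1, 7 neutrophil granule and 5 microglia markers were higher, beside 11.6% of all genes. Without AAV-miR SOD1 replicate 1, 2 erythroid markers were higher, beside 2.28% of all genes. Without AAV-miR ctrl replicate 5, 2 motoneuron markers were lower, where 1604 of 17241 genes passed in either direction. For injected against non-injected, 0 erythroid markers were higher without AAV-miR SOD1 replicate 1, beside 3.18% of all genes. Without non-injected replicate 3, 1 motoneuron marker was lower, where 1149 of 17871 genes passed in either direction. In AAV-miR SOD1 against non-injected, 2 microglia markers were higher without AAV-miR SOD1 replicate 2, beside 7% of all genes. Without AAV-miR SOD1 replicate 1, 0 neutrophil granule markers were higher, beside 5.5% of all genes. The erythroid count stayed 7 with each library left out, beside 5.5% to 12.3% of all genes called higher. The motoneuron count stayed 7 or 8, where between 2431 of 17857 and 4146 of 17798 genes passed in either direction.

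**Figure D5:**
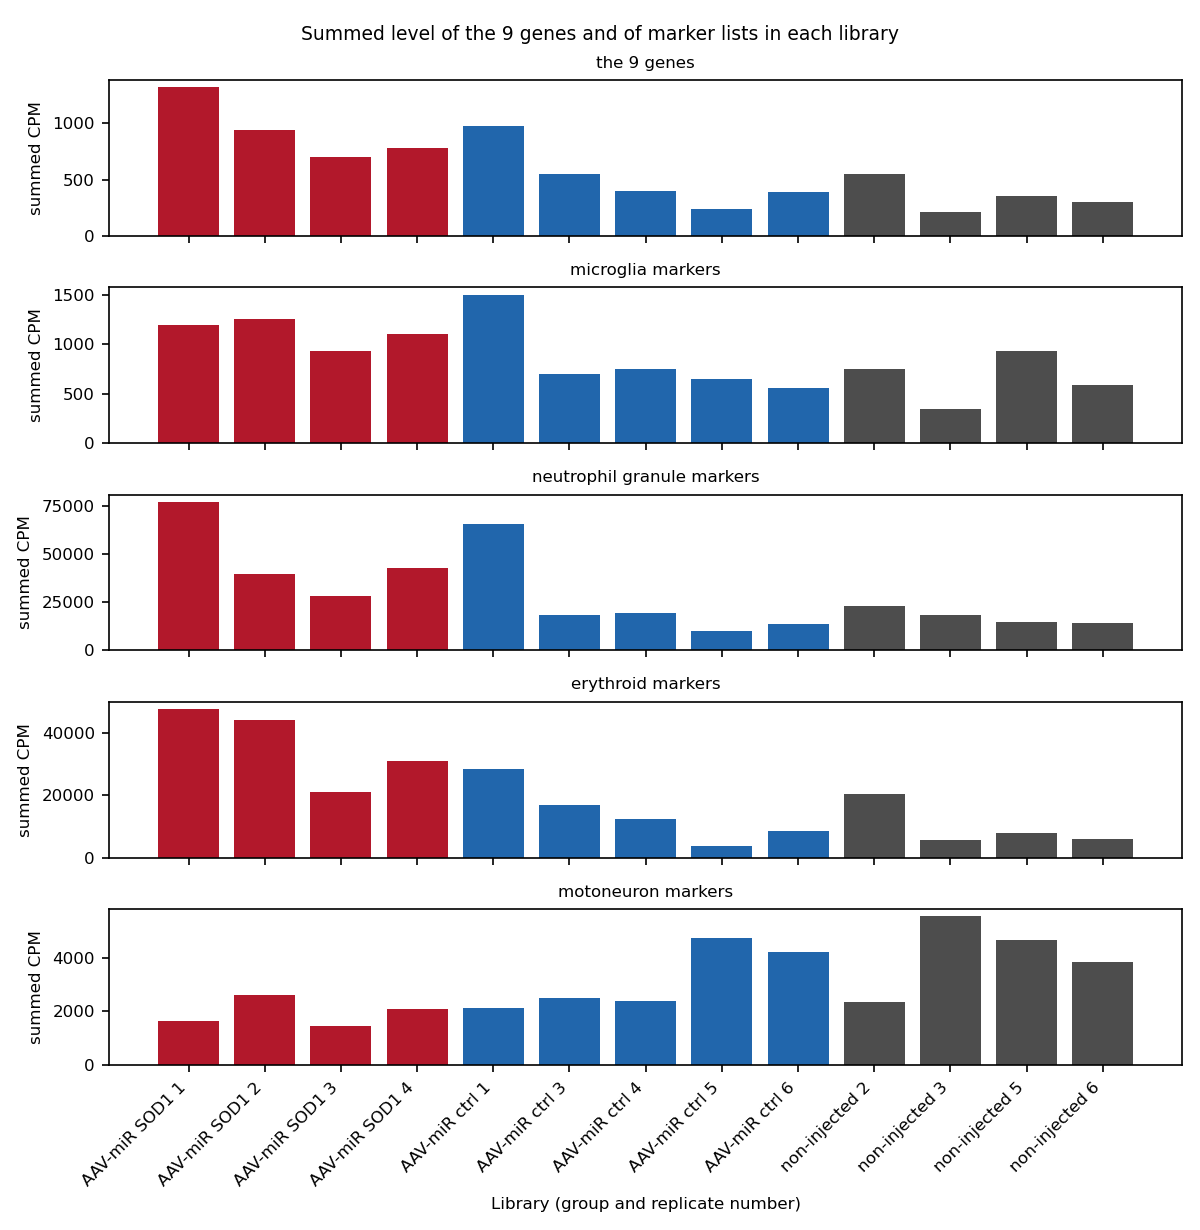
Summed CPM of the 9 genes and of 4 marker lists in each of the 13 libraries (bars from 0), coloured by group. AAV-miR ctrl replicate 1 stands above the other libraries of its group in the top 4 panels, and the motoneuron sums are at most 2613 CPM in AAV-miR SOD1 and reach 5531 CPM in non-injected libraries.

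The remaining marker lists were summed in the same order. Border macrophage and monocyte markers (5 genes) summed to 357 to 833 CPM in AAV-miR SOD1, 170 to 777 CPM in AAV-miR ctrl and 216 to 312 CPM in non-injected libraries, with 2 and 1 genes higher against AAV-miR ctrl and for injected against non-injected at an unadjusted p under 0.05. Of all genes, 5.99% and 4.78% were called higher in these comparisons. Lymphocyte markers (6 genes) summed to 205 to 441 CPM, 122 to 294 CPM and 46.3 to 189 CPM, with 1 and 2 higher. Plasmacytoid dendritic cell markers (4 genes, Siglech, Ly6d, Klk1 and Ccr9) summed to 97.0 to 192 CPM, 51.3 to 138 CPM and 19.9 to 79.9 CPM, with 0 and 2 higher. Whether these 4 genes mark that cell type alone in these captures was not tested. Endothelial markers (6 genes) summed to 121 to 183 CPM, 103 to 178 CPM and 75.1 to 175 CPM, and astrocyte markers (8 genes) to 859 to 1176 CPM, 1202 to 1629 CPM and 939 to 1702 CPM, with 0 higher in either comparison and 1 astrocyte marker lower against AAV-miR ctrl. Oligodendrocyte markers (6 genes) summed to 1192 to 2733 CPM, 1136 to 4527 CPM and 1831 to 2813 CPM, again with 0 higher. No marker of any list was at 0 in every library.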

How the data were processed

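The deposited values are raw counts of reads per Ensembl gene and library. Per the submitters' processing notes the authors used cutadapt 1.8, STAR 2.5.2b, HTSeq 0.6.1 and GRCm38; the annotation release and strand setting are not given in the sources used here. RNA was amplified with the SMARTer Ultra Low kit and tagmented with Nextera XT, per the labels' protocols. Rows that name no gene held 47.0 to 61.6% of each table, mostly reads aligned to several places, and were left out. Gene names, positions and exon lengths came from GENCODE M21, in which 48349 of 48709 identifiers were found.

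In R 4.3.3, genes were filtered with edgeR 4.0.16 (filterByExpr, minimum count 10, minimum total 15), scaled by TMM and tested by edgeR's quasi-likelihood F test on all 13 libraries with 3 groups, with Benjamini-Hochberg adjustment over 17403 genes and a threshold of 0.05. A standard error is the log2 fold change divided by the root of F. CPM used TMM-scaled library sizes, and log2 CPM a prior count of 2. The fit was tested on simulated data. All 9 genes are named. From each pathway list, genes past the threshold were to be named, or else the 3 with the smallest p in AAV-miR SOD1 against AAV-miR ctrl or in injected against non-injected, and some of these are given; 1 listed gene is not reported here. The 10 most alike genes were ranked by Pearson correlation with the mean of the 9. Members and lists were chosen with earlier results of these data known.

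Alternatives were other scalings and filters, DESeq2 1.42.0, limma-voom with quality weights (limma 3.58.1), fits on the compared groups alone, all injected libraries as 1 group, the replicate number as a block, the libraries numbered 1 to 4, the header exchange, a prior count of 0.5 and each library left out. Leaving out both libraries with conflicting headers was chosen after seeing the data.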

Additional observations from a re-analysis of the deposited data

Results flagged for a closer look

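In 1 of the 27 groups of 4 or 5 values examined (9 genes in 3 groups of libraries), a library lay far from the others of its group, where chance gives about 1 in 20, or 1.35. This was Ifit1 in AAV-miR SOD1 replicate 4, at 2.31 log2 CPM against 3.62 to 3.77 log2 CPM in the other 3 libraries. The gap was 0.897 of the group's range, above Dixon's 95% critical value for 4 samples. The other 8 genes gave no such gap in that library.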

How the results depend on the processing

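Of 900 log2 fold changes recomputed for the 9 genes under 26 alternatives, 890 kept their direction and side of the threshold, 4 passed it (DESeq2 in AAV-miR SOD1 against non-injected, 4 genes called in place of 0) and 6 changed sign. Following the headers turned AAV-miR ctrl against non-injected to -0.19 for Irf9, -0.18 for Ifit1, -0.046 for Usp18 and -0.13 for Ifitm3. Ifit1 in that comparison ranged from -0.11 to 1.30 with each library left out, and Bst2 against AAV-miR ctrl was -0.023 in the libraries numbered 1 to 4. The cause of these shifts was not tested.

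In this paragraph percentages in brackets are the share of all genes called higher. Of the 9 genes, 3 had an unadjusted p under 0.05 against AAV-miR ctrl (5.99%). This count was 5 by limma-voom (11.5%), 1 with the replicate number as a block (5.41%) and 0 in the libraries numbered 1 to 4 (2.45%). It was 1 to 5 with each library left out (2.28% to 11.6%). The 8 in AAV-miR SOD1 against non-injected (9.36%) became 4 with the block (4.96%), 4 with the header exchange (7.1%) and 3 in the libraries numbered 1 to 4 (8.03%). It became 4 without both libraries with conflicting headers (7.47%) and 4 to 9 with each left out (5.5% to 12.3%). The 0 in AAV-miR ctrl against non-injected (1.38%) was 0 to 7 with each left out (0.865% to 2.56%). The 7 in injected against non-injected (4.78%) became 2 with the block (2.3%), 0 with the exchange (2.22%) and 2 in the libraries numbered 1 to 4 (5.51%). It became 2 without both (2.86%) and 2 to 9 with each left out (2.39% to 7.8%). The fits that leave libraries out rest on fewer mice. Same-numbered libraries did not regularly deviate together. Their correlations ran from -0.19 to 0.24 over 8 pairs, of which 3 were over 0.1. Of the 13 libraries, 3 correlated best with a library of their own number. The block therefore adjusts for a shared number, not for known pairs. Groups held 4 or 5 mice, the common biological coefficient of variation was 0.470, and the smallest difference these fits could detect was not determined.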
